A study of Rattus norvegicus with 13 samples.

Results

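Lipid and cholesterol synthesis genes were followed in rat mammary epithelial cells of 2 ages. The genes were 47 enzymes, regulators and milk fat proteins listed by symbol, of which 46 had a row in the table of 14790 genes. The remaining gene, Elovl6, was not analysed here. By role the 46 genes were 17 sterol genes, 5 SREBP regulators, 16 fatty acid genes and 8 triglyceride and milk fat genes. The cells came from female Wistar-Furth rats, a strain susceptible to mammary cancer, and neither a treatment nor an engineered allele is named for either age. Of 13 rats, 6 were 6 weeks old (within WOS, the window of susceptibility, when the gland responds most to carcinogens) and 7 were 10 weeks old (outside WOS). Each rat gave 1 RNA-seq library from collagenase-digested abdominal and inguinal glands, of which a filter kept ductal fragments. This enriches epithelial cells without removing all stromal, fat or immune cells, and each age was sampled on its own animals.

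Fatty acids are built from cytosolic citrate: Acly makes acetyl-CoA, acetyl-CoA carboxylase makes malonyl-CoA, and Fasn, fed with NADPH by enzymes such as Me1, joins them into palmitate. Desaturases and elongases then modify the chain, acyl-CoA synthetases activate it, and the glycerol acyltransferases, lipin and the Dgat enzymes assemble triglyceride, which luminal cells of the lactating gland store in droplets and secrete as milk fat. Cholesterol is built from acetyl-CoA through mevalonate, squalene and lanosterol. SREBP transcription factors, encoded by Srebf1 and Srebf2, switch on both routes when Scap escorts them out of the endoplasmic reticulum, where the Insig proteins hold them when sterols are plentiful.

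The libraries differed in more than age. The values, called normalized counts here, are estimated read counts that the authors scaled per library and rounded, and they summed to between 13261906 and 15659533 per rat. Of the 16 adipocyte markers in the table, 6 were higher within WOS, and the adipocyte score, the mean of log2(normalized count + 1) over the list, ran from 6.99 to 7.66 at 6 weeks and from 6.28 to 6.61 at 10 weeks, without overlap. The defining marker Adipoq was low at both ages (20 to 56 at 6 weeks, 0 to 12 at 10 weeks). Of 11 fibroblast markers, 6 were higher within WOS, and the list's summed level was 107323 to 223766 at 6 weeks and 19765 to 56240 at 10 weeks. Of 8 mast cell markers, 7 were higher within WOS and 1, Kit, was higher outside. Kit is also in the luminal list. Of 13 basal epithelial markers 1 was higher outside WOS, of 6 lymphocyte markers 1 was higher within WOS, and of 12 macrophage markers limma called 0 (1 at an unadjusted p under 0.05). Of 18 luminal epithelial markers, Epcam and Kit were higher outside WOS. With 1 rat left out, Epcam was called in 0 and Kit in 4 of 13 fits. Of the 18, 13 were lower and 5 higher at 6 weeks by log2 fold change. The luminal score overlapped between the ages (9.56 to 10.4 against 9.89 to 10.4). In bulk samples such as these, fewer cells of a type and less RNA per cell cannot be told apart. Of 9 milk protein genes 0 were called by limma (0 at an unadjusted p under 0.05), but they varied widely among rats of each age. Their score was 9.36 to 10.1 in rats 70, 84 and 86 (6 weeks), 9.52 in rat 78 and 12.1 in rat 81 (10 weeks), and 6.22 to 7.83 in the other 8 rats.

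Promoter sequence was available for 38 of the 46 genes from RefSeq (build GRCr8), as windows of 300 bases of which 250 lie before the transcription start. A window was not at hand for Pmvk, Fdft1, Sqle, Stard4, Acaca, Fasn, Dgat1 and Dgat2. The letters of 3 sites were searched on both strands. The sterol regulatory element TCACNCCAC, the classical SREBP site, was in 0 of 38 genes' windows and in 1.25% of 27457 genes' windows. The E-box-like SREBP site ATCANNTGA was in 0 of 38, against 3.01% of all genes. With shares this low among all genes, 0 of 38 does not tell whether these genes hold the 2 sites less often. The letters CCAAT, the core of the site of NF-Y, a general activator that works beside SREBP at many lipid genes, were in 28 of 38 (73.7%), against 39.6% of all genes. The matches were in 10 of 13 sterol genes and in 18 of the other 25. All genes here are the 27457 with a RefSeq window, not the genes of the expression table, whose own share was not computed. A gene with more than 1 window was counted if any of them matched. Only CCAAT had matches in the windows of these 38 genes. A match is only a match of letters, and a search for exact letters misses a site spelled otherwise. Of the 8 genes that passed the test between the ages, described further on, 7 had a window and 5 held CCAAT or its reverse complement ATTGG. Those with the match before the start are shown as 60 bases each, 5′ to 3′ on the gene's strand with the match in capitals, since they are the windows of genes that were higher at 10 weeks.
Lss (GRCr8, chr20:12118281-12118340, minus strand): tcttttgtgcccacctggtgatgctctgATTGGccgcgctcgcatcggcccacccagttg
Acacb (chr12:48138255-48138314, minus strand): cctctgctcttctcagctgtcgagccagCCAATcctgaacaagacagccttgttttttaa
Lpin1 (chr6:45108966-45109025, minus strand): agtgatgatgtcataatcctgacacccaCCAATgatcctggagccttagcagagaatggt
Xdh (chr6:27282213-27282272, plus strand): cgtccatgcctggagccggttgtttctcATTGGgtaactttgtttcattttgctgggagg
The centre of the match lies 80 bases before the start in Lss, 70 in Acacb, 53 in Lpin1 and 76 in Xdh. In Plin2 the match lies 34 bases after the start of 1 of its 2 windows, and Me1 and Scd had no match. Genes that did not differ between the ages held the letters too, among them Fads1 (119 bases before the start), Thrsp (119) and Btn1a1 (78 and 159).

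The genes that differed between the ages were mostly higher outside WOS: the milk fat proteins Plin2 and Xdh, the triglyceride enzyme Lpin1, the fatty acid enzymes Acacb and Me1, and the sterol enzymes Fdft1 and Lss. The desaturase Scd was higher within WOS. Each gene was tested with limma on log2(normalized count + 1) across all 14790 genes, and was called at a Benjamini-Hochberg adjusted p under 0.05. A log2 fold change above 0 is higher within WOS. Of the 46 genes, 7 (15.2%) were called higher outside WOS, where 7.39% of all genes were. Only 1 gene (2.17%) was called higher within WOS, where 8.71% of all genes were, and 16.1% of all genes were called in either direction. This balance moved with the fit: limma called 5 higher outside and 5 higher within WOS in a set of 8 rats taken alone, 9 and 6 with sample quality weights, and 7 and 4 with the milk protein score as a term. The median log2 fold change was 0.02 over the 46 genes and 0.03 over all genes. It was 0.02 for the sterol genes (2 of 17 called), 0.09 for the fatty acid genes (3 of 16), 0.21 for the regulators (0 of 5) and -0.29 for the triglyceride and milk fat genes (3 of 8). Levels of 4 genes, Fdft1, Lss, Acacb and Plin2, did not overlap between the ages, all higher outside WOS, as was so for 2.78% of all genes. With the adipocyte score as a term none of the 46 genes was called by limma (9 at an unadjusted p under 0.05) and 1 of 14790 was, since the score itself separates the ages; age, adipocyte, fibroblast and mast cell RNA cannot be told apart here.

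**Figure D1:**
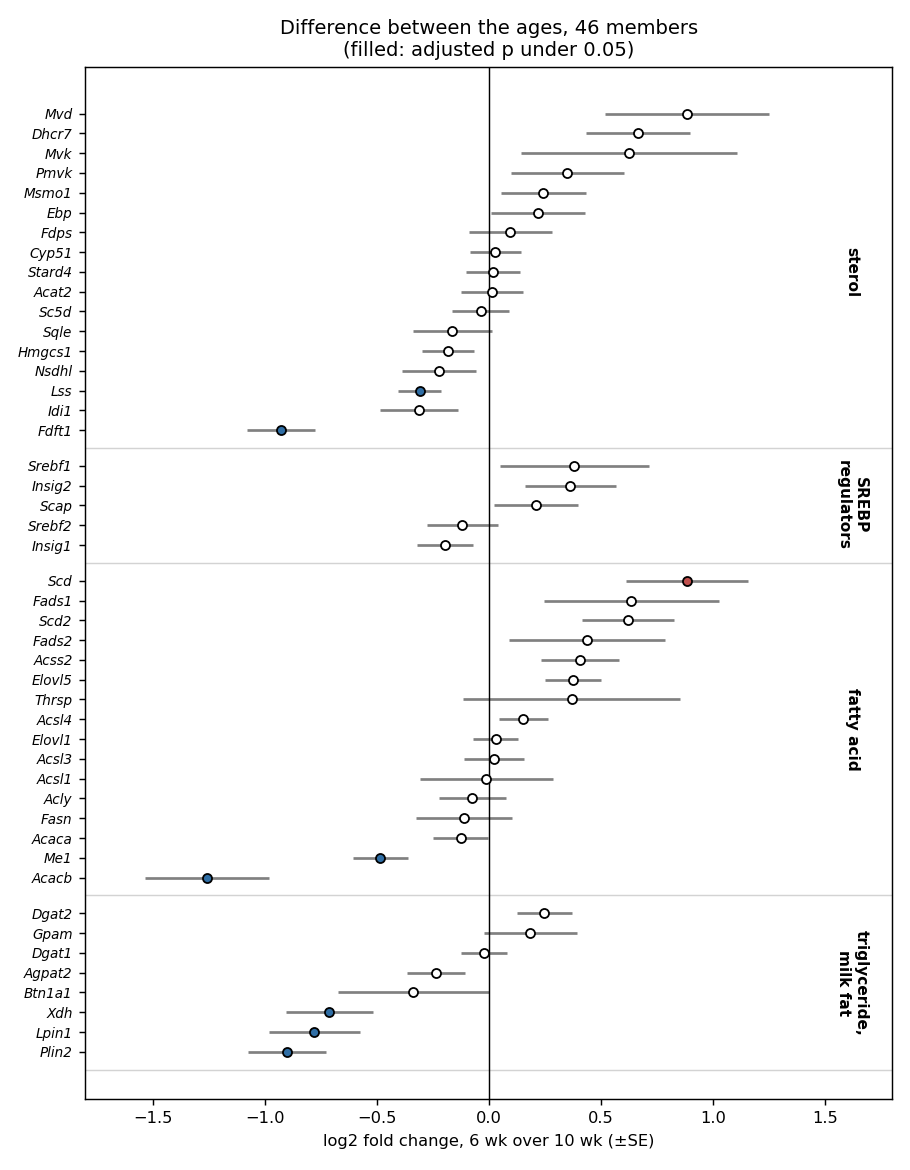
Log2 fold change (6 weeks over 10 weeks, horizontal axis) of each of the 46 genes with its standard error, grouped by role and sorted within each role. Filled dots mark the 8 called genes, 7 of them left of 0 (higher at 10 weeks, blue) and Scd right of 0 (higher at 6 weeks, red).

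Among the sterol genes, Fdft1 stood out. It encodes squalene synthase, which commits farnesyl diphosphate to the sterol route. Its normalized counts were 431 at the lowest, 633.5 at the median and 719 at the highest at 6 weeks, and 876, 1136 and 1359 at 10 weeks. Every 10-week rat was above every 6-week rat. The level was 1.90-fold higher outside WOS (log2 fold change -0.93 ± 0.15 SE, adjusted p = 0.00172), and the call held when any 1 rat was left out (adjusted p 0.0018 to 0.00503).

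Lss, lanosterol synthase, closes the ring of the sterol skeleton. Its normalized counts ran from 487 to 571 at 6 weeks (median 510) and from 582 to 812 at 10 weeks (median 631). The ages did not overlap, but they were separated by little, and the highest 10-week rat, rat 78, stood apart. The difference was 1.24-fold (log2 fold change -0.31 ± 0.10 SE, adjusted p = 0.0461). It was not called in any of the 13 fits with 1 rat left out (adjusted p 0.0544 to 0.0961).

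The other 15 sterol genes were not called, with log2 fold changes between -0.31 (Idi1) and 0.88 (Mvd). In the order of the pathway, the genes before squalene included Acat2 (0.01 ± 0.14 SE), Hmgcs1 (-0.18 ± 0.12), Idi1 (-0.31 ± 0.17) and Fdps (0.10 ± 0.19). Idi1 isomerizes the isoprene unit and Fdps joins these units into farnesyl diphosphate, so the gene just before Fdft1 in the route had overlapping levels at both ages, 506 to 947 at 6 weeks and 529 to 949 at 10 weeks. Mvk, Pmvk and Mvd, the mevalonate kinases and decarboxylase, had low values. Mvd ran from 15 to 70 at 6 weeks and from 8 to 32 at 10 weeks (log2 fold change 0.88 ± 0.37 SE, adjusted p = 0.117). Sqle, which epoxidizes squalene directly after Fdft1, was at 211 to 387 and 267 to 466 (-0.16 ± 0.18).

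After lanosterol, Cyp51, Msmo1, Nsdhl, Ebp and Sc5d had log2 fold changes between -0.22 and 0.24, none called. Dhcr7, which makes cholesterol from its last precursor in this branch, came nearest to a call in the other direction from Fdft1. Its normalized counts were 77 to 188 at 6 weeks (median 143.5) and 47 to 110 at 10 weeks (median 85), so that 4 of 6 rats within WOS were above all rats outside WOS. The log2 fold change was 0.67 ± 0.23 SE with an adjusted p of 0.069. Stard4, which carries cholesterol between membranes, was level (110 to 146 against 100 to 147, log2 fold change 0.02 ± 0.12).

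None of the 5 SREBP regulators was called by limma (0 at an unadjusted p under 0.05), though Insig1 was with sample quality weights (log2 fold change -0.297, adjusted p = 0.0423). Srebf1, the factor tied mainly to fatty acid genes, ran from 299 to 859 at 6 weeks (median 499) and from 212 to 851 at 10 weeks (median 361), with a log2 fold change of 0.38 ± 0.33 SE and an adjusted p of 0.458. Srebf2, tied mainly to sterol genes, ran from 840 to 1516 and from 980 to 1658 (-0.12 ± 0.16, adjusted p = 0.643). Levels of both factors overlapped over nearly their whole range, and these are mRNA levels, not the cleaved factors.

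Scap, the escort, ran from 456 to 768 at 6 weeks and from 413 to 787 at 10 weeks (log2 fold change 0.21 ± 0.19 SE, adjusted p = 0.473). Insig1, itself a sterol-responsive gene, ran from 1812 to 2484 and from 2113 to 3382 (-0.20 ± 0.13, adjusted p = 0.308). Insig2 ran from 77 to 97 and from 38 to 110 (0.36 ± 0.20, adjusted p = 0.237). The ages overlapped for each of the 3.

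Of the 7 genes up to palmitate, 2 were called higher outside WOS and 5 had a log2 fold change below 0. Of the 6 elongases and desaturases, 1 was called higher within WOS and 6 had a log2 fold change above 0, as 7764 of all 14790 genes did. The difference between the 2 sub-lists was not tested, and the signs of Acly, Fasn and Elovl1 were reversed in the set of 8 rats and with sample quality weights.

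Acacb, the acetyl-CoA carboxylase of the mitochondrial surface, whose malonyl-CoA restrains fatty acid entry into mitochondria, had the largest fold change of the 46 genes. Its normalized counts were 420, 887.5 and 1109 (lowest, median, highest) at 6 weeks and 1255, 1702 and 3211 at 10 weeks. No 6-week rat reached the lowest 10-week rat, and rats 78 and 81 were the highest. The level was 2.39-fold higher outside WOS (log2 fold change -1.26 ± 0.27 SE, adjusted p = 0.00958), and it was called in all 13 fits with 1 rat left out. Acaca, the cytosolic carboxylase that feeds palmitate synthesis, was not called (707 to 1024 against 766 to 1117, log2 fold change -0.12 ± 0.12, adjusted p = 0.516).

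Me1, malic enzyme, which supplies NADPH, was higher outside WOS. It ran from 1278 to 1895 at 6 weeks (median 1632.5) and from 1889 to 2681 at 10 weeks (median 2195). Rat 83, the lowest at 10 weeks, was just under the highest 6-week rat, and the other 6 were above all of them. The difference was 1.40-fold (log2 fold change -0.48 ± 0.12 SE, adjusted p = 0.0188), called in all 13 fits with 1 rat left out.

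The core enzymes Acly and Fasn were not called. Acly ran from 2175 to 3300 at 6 weeks and from 2351 to 3682 at 10 weeks (log2 fold change -0.07 ± 0.15 SE, adjusted p = 0.771). Fasn ran from 2424 to 4629 and from 2910 to 6265 (-0.11 ± 0.21, adjusted p = 0.754), and rat 86 was far below the other 6-week rats. Acss2, which makes acetyl-CoA from acetate, had a log2 fold change of 0.41 ± 0.17 (adjusted p = 0.124), and Thrsp, a nuclear protein that accompanies lipogenesis, one of 0.37 ± 0.48 (adjusted p = 0.635).

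Scd, the stearoyl-CoA desaturase that puts the first double bond into saturated chains, was the 1 gene called higher within WOS. Its normalized counts were 451, 595 and 714 (lowest, median, highest) at 6 weeks and 168, 307 and 584 at 10 weeks. Of the 6-week rats 4 were above all 10-week rats, while rats 72 and 85 at 10 weeks lay within the 6-week range. The level was 1.85-fold higher within WOS (log2 fold change 0.88 ± 0.27 SE, adjusted p = 0.0431). It was called in 3 of the 13 fits with 1 rat left out, those without rats 72, 85 and 86, and its adjusted p over the 13 ran from 0.0171 to 0.0955.

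The related desaturase Scd2, which can share reads with Scd, missed the threshold (2620 to 4269 at 6 weeks, 1547 to 3290 at 10 weeks, log2 fold change 0.62 ± 0.20 SE, adjusted p = 0.0551). So did Elovl5, an elongase of polyunsaturated chains, with 453 to 630 and 342 to 479 (0.38 ± 0.13, adjusted p = 0.0578). Both were called in some fits with 1 rat left out, Scd2 in 3 and Elovl5 in 2. Fads1 and Fads2, the desaturases of polyunsaturated chains, had log2 fold changes of 0.64 ± 0.39 (adjusted p = 0.284) and 0.44 ± 0.35 (adjusted p = 0.411), with a wide spread at each age that is taken up with the milk protein genes further on. Elovl1, which elongates long saturated chains, was level (558 to 696 against 501 to 693, log2 fold change 0.03 ± 0.10).

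None of the 3 acyl-CoA synthetases, which activate fatty acids for use, was called by limma (0 at an unadjusted p under 0.05). The largest log2 fold change among them was that of Acsl4, 0.15 ± 0.11 SE (2577 to 3468 against 2152 to 3094, adjusted p = 0.362), and those of Acsl1 and Acsl3 were -0.01 and 0.02.

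**Figure D2:**
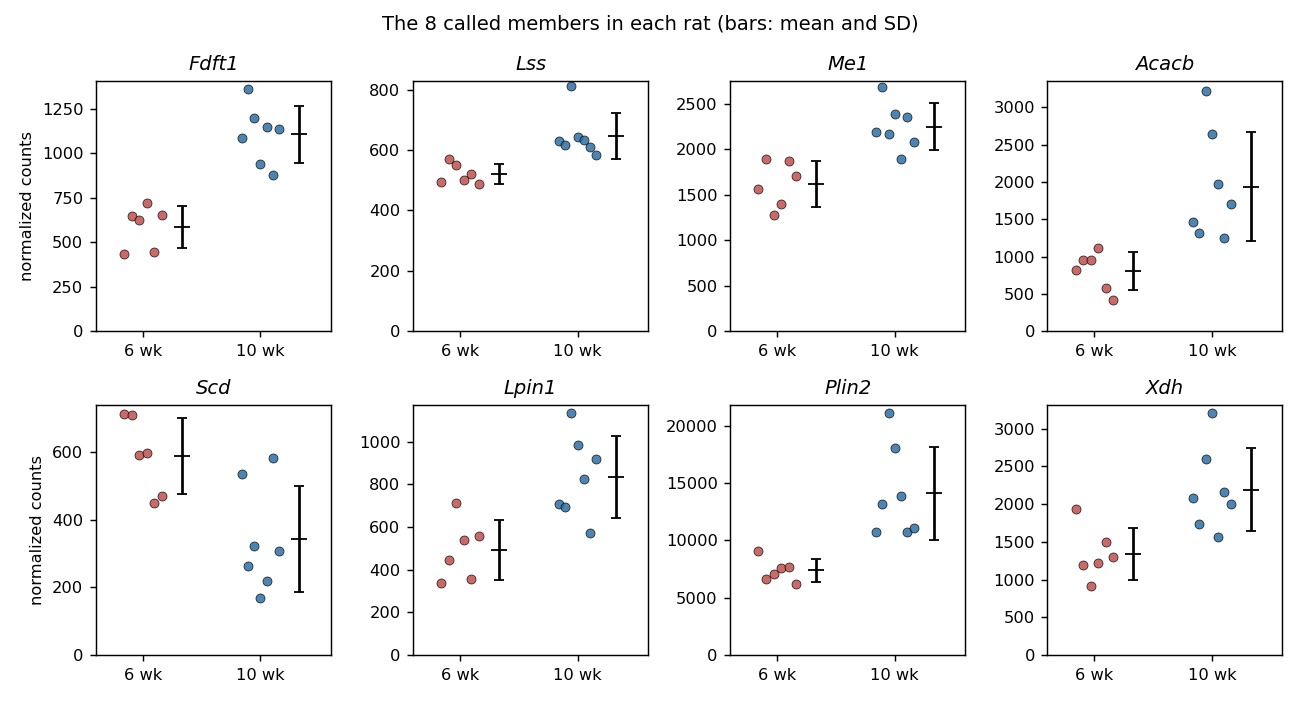
Normalized counts (vertical axes, from 0) of the 8 called genes, 1 dot per rat, with 6 rats at 6 weeks (red) and 7 rats at 10 weeks (blue), beside the mean with its standard deviation. Fdft1, Lss, Acacb and Plin2 show a gap between the ages, and in Acacb, Plin2, Lpin1 and Xdh the 2 highest dots at 10 weeks are rats 78 and 81.

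Of the 5 triglyceride enzymes, Lpin1 alone was called. It encodes lipin, the phosphatidate phosphatase that makes the diacylglycerol for triglyceride. Its normalized counts were 336, 490.5 and 715 (lowest, median, highest) at 6 weeks and 574, 825 and 1134 at 10 weeks. Of the 10-week rats 4 were above all 6-week rats, and the ages overlapped through rat 75 at 6 weeks. The level was 1.72-fold higher outside WOS (log2 fold change -0.78 ± 0.20 SE, adjusted p = 0.0221). The call was lost without rat 70 or without rat 84, with an adjusted p of at most 0.0549.

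The other 4 had small differences. Gpam, the first acyltransferase, had a log2 fold change of 0.19 ± 0.21 SE, and Agpat2, the second, of -0.24 ± 0.13. Dgat1 and Dgat2 both add the last acyl chain. Dgat1 was at 378 to 522 and 402 to 507 (-0.02 ± 0.10), and Dgat2 at 213 to 326 and 207 to 291 (0.25 ± 0.12, adjusted p = 0.187).

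Of the 3 milk fat droplet genes, 2 were called, both higher outside WOS. Plin2, perilipin 2 or adipophilin, coats the lipid droplets of secretory and many other cells. Its normalized counts were 6191, 7323.5 and 9097 (lowest, median, highest) at 6 weeks and 10674, 13186 and 21069 at 10 weeks. Every 10-week rat was above every 6-week rat, with rats 78 and 81 the highest. The level was 1.87-fold higher outside WOS (log2 fold change -0.90 ± 0.17 SE, adjusted p = 0.00492), and it was called in all 13 fits with 1 rat left out. The coat protein of fat cell droplets, Plin1, was low at both ages, at 4 to 19 within WOS and at 0 to 6 outside WOS. This is the opposite order (log2 fold change 1.94 ± 0.49, adjusted p = 0.0188). Of the 16 adipocyte markers, 11 had a log2 fold change above 0 and 5 below. Among the latter was Plin4 (13 to 46 against 16 to 41, log2 fold change -0.13 ± 0.29).

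Xdh, xanthine oxidoreductase, is a purine enzyme that also takes part in enclosing the milk fat globule. It ran from 919 to 1931 at 6 weeks (median 1255.5) and from 1564 to 3205 at 10 weeks (median 2087). Of the 10-week rats 5 were above all 6-week rats, and the ages overlapped through rat 70. The level was 1.64-fold higher outside WOS (log2 fold change -0.71 ± 0.19 SE, adjusted p = 0.0263). Without rat 71 the adjusted p was 0.0537. Btn1a1, butyrophilin, the partner of Xdh on the globule membrane, was not called (1150 to 2945 against 1397 to 6690, log2 fold change -0.34 ± 0.34, adjusted p = 0.521).

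The rats were also parted into 2 sets of 8 and 5 that cut across the ages. The cut was made at the widest gap on the main axis of their variation within ages, which always gives 2 sets. The 6-week rats with a high milk protein score (70, 84 and 86) fell in the set of 8. The 10-week rats with a high score (78 and 81) fell in the set of 5, so that fold changes within a set can carry the score as well as age. Within the set of 8 (rats 70, 71, 84 and 86 against 72, 74, 85 and 87), the log2 fold changes were -1.04 for Fdft1, -1.11 for Acacb, -0.64 for Plin2, -0.78 for Lpin1 and -0.40 for Me1, all 5 called. Those of Lss (-0.24), Xdh (-0.46) and Scd (0.52) kept their sign and were not called. In the set of 5 (rats 75 and 80 against 78, 81 and 83), where no test was run, the differences of mean log2 were -0.70 for Fdft1, -1.31 for Acacb, -1.25 for Plin2, -0.65 for Lpin1, -0.68 for Me1, -0.40 for Lss, -1.15 for Xdh and 1.38 for Scd.

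**Figure D3:**
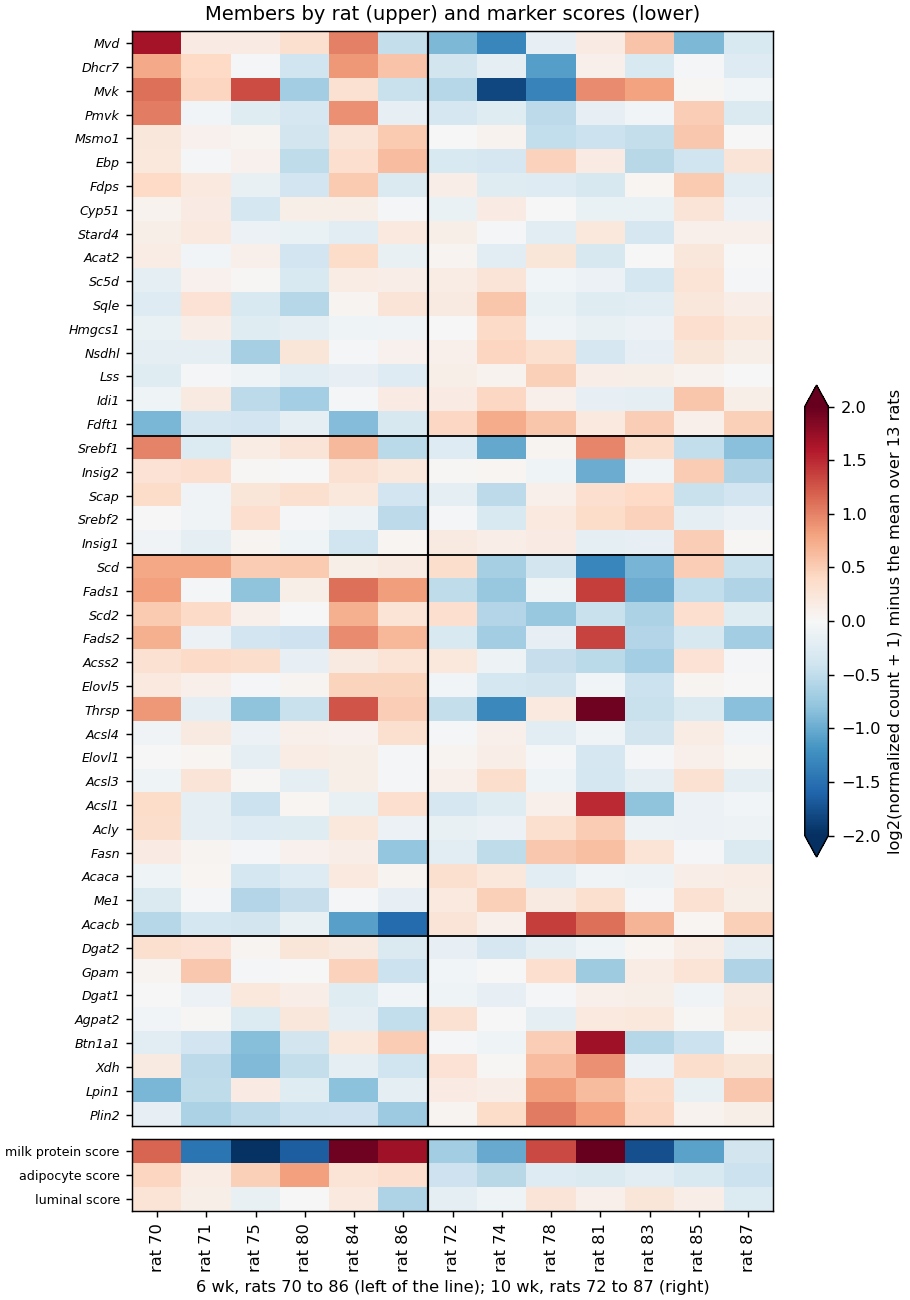
Log2(normalized count + 1) of each of the 46 genes in each of the 13 rats, minus the gene's mean over all rats (colour, cut at 2 either side), in the order of the plot of fold changes, with 6-week rats left and 10-week rats right of the vertical line. The lower strip shows 3 marker scores centred the same way; rats 70, 84, 86, 78 and 81 have a high milk protein score, and Thrsp, Fads1 and Fads2 are most intense in rat 81.

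Several genes varied among rats of the same age. In a limma fit with age and the milk protein score together, 4 of 46 genes (8.70%) rose with the score, Thrsp, Fads1, Fads2 and Btn1a1, where 0.291% of all genes did, and 0 of 46 fell (0 at an unadjusted p under 0.05). The 43 genes that rose include 7 of the 9 milk protein genes that make up the score, and this fit was added after the data were seen. Rats with a high score came from both ages and from both sets of rats.

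Fads1 had normalized counts of 867, 1058 and 872 in the high-score 6-week rats 70, 84 and 86, and of 481, 280 and 533 in rats 71, 75 and 80. At 10 weeks it was at 1274 in rat 81, 463 in rat 78 and 245 to 349 in the other 5. At each age, then, the rats with high milk protein genes had the highest Fads1. Its slope was 0.38 ± 0.04 SE log2 units per unit of score (adjusted p = 0.00114).

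Fads2 lies beside Fads1 in function, taking the first desaturation step of the same chains. It was at 294, 345 and 284 in rats 70, 84 and 86 and at 134 to 164 in the other 6-week rats, and at 455 in rat 81, 159 in rat 78 and 110 to 145 in the other 10-week rats (slope 0.33 ± 0.04, adjusted p = 0.00213). Thrsp followed the same rats, with 245, 321 and 187 against 76 to 117 at 6 weeks, and with 518 in rat 81, 153 in rat 78 and 54 to 109 in the others at 10 weeks (slope 0.45 ± 0.06, adjusted p = 0.00646). Btn1a1 reached 6690 in rat 81 and 2906 in rat 78, against 1397 to 2099 in the other 10-week rats (slope 0.32 ± 0.04, adjusted p = 0.00382).

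These slopes lean on rat 81, which has the highest milk protein level of all (Csn2, beta-casein, at 13439, against 2 to 1580 in the other rats). Without it 1 of 46 genes was called, Fads1 (slope 0.34, adjusted p = 0.0467), where 0.0676% of all genes were. The other 3 slopes were then 0.28 for Fads2 (adjusted p = 0.107), 0.38 for Thrsp (adjusted p = 0.208) and 0.25 for Btn1a1 (adjusted p = 0.159). Of the genes called between the ages, none was called on the score, with a slope of 0.09 for Plin2 (adjusted p = 0.492) and of 0.16 for Xdh (adjusted p = 0.0821).

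With the score as a term, the difference between the ages was called for Fads1 (log2 fold change 0.67), Fads2 (0.47) and Elovl5 (0.38) as well, all higher within WOS, and the log2 fold changes of Fdft1, Acacb, Plin2, Lpin1, Xdh, Me1, Lss and Scd remained called.

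**Figure D4:**
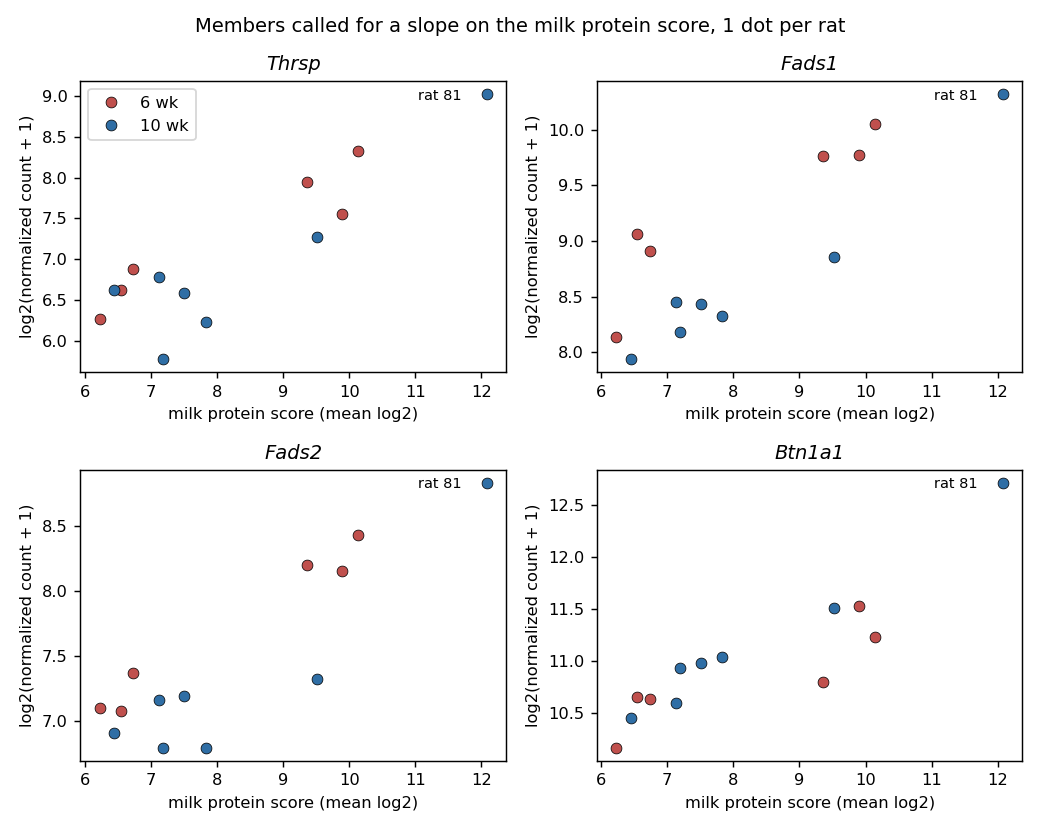
Log2(normalized count + 1) of Thrsp, Fads1, Fads2 and Btn1a1 (vertical axes) against the milk protein score, the mean log2 value of 9 milk protein genes (horizontal axes), 1 dot per rat, red at 6 weeks and blue at 10 weeks. Levels climb with the score at both ages, rat 81 is at the far right of each panel, and for Fads1 and Fads2 the red dots lie above blue dots of a like score.

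Genes of the same pathways outside the 47 were counted by list. For comparison, 8.71% of all genes were called higher within and 7.39% higher outside WOS. Levels without overlap between the ages were higher within WOS in 487 of all 14790 genes and higher outside in 411. Of 10 further sterol enzymes, 3 were called higher outside and 1 higher within WOS. Ggps1, which draws farnesyl diphosphate off to geranylgeranyl diphosphate, was higher outside WOS (472 to 664 against 519 to 881, log2 fold change -0.45 ± 0.13 SE, adjusted p = 0.0393), a call kept in 3 of the 13 fits with 1 rat left out.

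Of 22 genes of sterol uptake and efflux, 3 were called higher within and 1 higher outside WOS, led by Abcg1, a sterol exporter (log2 fold change 0.67 ± 0.16 SE), with Lpcat3 (0.37) and Npc1 (0.35), all higher within WOS. Of 15 genes of SREBP processing and lipid regulation, only Mbtps1, the site-1 protease that makes the first cut in SREBP, was called (1327 to 1760 against 1131 to 1365, 0.34 ± 0.09, adjusted p = 0.0272). Of 15 genes of NADPH and acetyl-CoA supply, Idh2 (1.14) and Nnt (0.63), both mitochondrial, were called higher within WOS, the opposite direction to Me1. With 1 rat left out, Abcg1 was called in 13 of 13 fits, Idh2 in 11, Mbtps1 in 7, Lpcat3 in 6, Nnt in 5 and Npc1 in 4.

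Of 19 further fatty acid enzymes, 3 were called, all higher within WOS: Elovl2 (log2 fold change 1.40 ± 0.34 SE), Hsd17b12 (0.71 ± 0.18) and Tecr (0.75 ± 0.23). These 3 act in chain elongation, and the list's other elongation genes Elovl4, Elovl7, Hacd1, Hacd2, Hacd3 and Hacd4 were not called. Elovl2 ran from 29 to 36 at 6 weeks and from 3 to 25 at 10 weeks, without overlap. Of 11 genes of fatty acid uptake and binding, 2 were called higher within WOS, Gpihbp1, which anchors lipoprotein lipase to capillaries (1.74 ± 0.28), and Lmf1, which matures it (0.88 ± 0.24), and Fabp5, a fatty acid carrier, was higher outside (-0.63 ± 0.18). With 1 rat left out, Elovl2 and Gpihbp1 were called in 13 of 13 fits, Hsd17b12 in 12, Lmf1 in 8, Fabp5 in 6 and Tecr in 4. The endothelial score overlapped between the ages (9.50 to 10.3 against 9.36 to 10.0), with 1 of 11 endothelial markers called higher within WOS.

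Of 16 further triglyceride and phospholipid enzymes, 5 were called higher within and 2 higher outside WOS. Lpgat1, an acyltransferase, was higher outside WOS without overlap (1222 to 1666 against 1987 to 2898, log2 fold change -0.75 ± 0.12 SE, adjusted p = 0.00166). Mboat1 (0.63 ± 0.13) and Gpat3 (0.59 ± 0.14), 2 other acyltransferases, were higher within WOS without overlap, and all 3 were called in 13 of 13 fits with 1 rat left out. Of 13 further droplet genes Plin1 alone was called, so that Plin2 was the 1 droplet coat gene called higher outside WOS among those tested. Of the 13, 9 had a log2 fold change above 0 and 4 below, the lowest at -0.739.

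The part of the adipocyte, fibroblast and mast cell markers in these differences was not tested beyond the fits given. For Acacb, Plin2, Lpin1, Xdh, Me1, Fdft1 and Lss the order of the ages was opposite to that of the adipocyte, fibroblast and mast cell scores. For Scd it was the same, and neither order tells age and cell mix apart. With the luminal score as a term, all 8 genes remained called.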

How the data were processed

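RNA-seq libraries of mammary epithelial cells from 13 rats, 1 per rat, were analysed. RSEM 1.2.22 gave the estimated counts, which the authors scaled and rounded, so that the unit of the deposited values is a score, called normalized counts here. The submitters' processing notes name rn5, edgeR and DESeq2, with no role given. The depth before scaling is unknown here. The deposited table also holds the authors' own comparison (fold changes, p-values, false discovery rates) and a word on nuclear or cytoplasmic location, which were not used.

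The test was limma 3.58.1 (R 4.3.3), two-sided, without covariates, with a pseudocount of 1 before the log2. The filter was a mean of 1 or more, met by all 14790 genes, and a Benjamini-Hochberg adjusted p under 0.05 counted as a call. Fold changes on this scale understate changes of low genes. The fit was checked on simulated data. Promoter windows are RefSeq sequences. Tables and plots used Python 3.11.15, pandas 2.3.3 and matplotlib 3.10.9.

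The 47 genes and all lists were chosen with earlier results of these data known. All members are named: those called, the SREBP regulators and the largest change of each sub-list with full values, and from each other pathway list up to 3 called genes with the smallest adjusted p, some of which are not reported here. Plin1 beside Plin2 and the slope on the milk protein score were chosen after their values were seen. Alternatives were median-ratio and library size scaling, 0.1 as the pseudocount, at least 10 in each rat, no filter, each rat left out, limma-trend, sample quality weights, marker scores as terms (those of milk protein and luminal genes added after the data were seen), and the larger set of 8 rats alone.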

Additional observations from a re-analysis of the deposited data

Results flagged for a closer look

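Each gene's rats of an age were screened for a highest or lowest rat set apart from the rest by a gap that took up most of the range (Dixon's ratio over its 95% critical value). This marked 9 of 92 gene and age groups, and chance marks about 1 in 20. Of the 9, 6 were rat 81 at 10 weeks, which also had the highest milk protein score. Rat 81 was the highest for Thrsp (518, next 153), Fads1 (1274, next 463), Fads2 (455, next 159), Acsl1 (1907, next 723) and Btn1a1 (6690, next 2906), and the lowest for Elovl1 (501, next 613). Rat 78 was the highest of the 10-week rats for Lss (812, next 642), and rat 85 for Pmvk (56, next 38). Rat 86 was the lowest of the 6-week rats for Fasn (2424, next 4067). Without rat 81 the log2 fold change of Acsl1 was 0.238 in place of -0.01.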

How the results depend on the processing

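No paired analysis was possible because the ages share no rat and no replicate number. Over 24 alternatives the signs of the 8 called genes were the same as reported but for Me1 with the adipocyte score as a term (0.113). The adipocyte score separates the ages, so that fit cannot divide them: it left 0 of the 46 genes called in either direction, 1 gene of all higher within and 0 higher outside WOS, and medians of 0.37 (sterol), 0.456 (fatty acid) and -0.461 (triglyceride and milk fat).

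The number of the 46 genes called higher within WOS moved from 1 to 2 with library size scaling (Elovl5 was added). It was 3 with a minimum of 10 in every rat, with limma-trend and with the luminal score. It was 4 with the milk protein score, 5 in the larger set of rats and 6 with sample quality weights. With 1 rat left out it ran from 0 to 3. The genes added were among Elovl5, Scd2, Fads1, Fads2, Mvd, Dhcr7, Dgat2 and Thrsp. The number higher outside WOS went from 7 to 9 with sample quality weights, which added Insig1 (-0.297) and Agpat2 (-0.286). It went to 6 with library size scaling, where Lss was lost, and to 5 in the larger set. With 1 rat left out it ran from 5 to 6. Scd was lost with sample quality weights and in the larger set of rats. Sample quality weights called 3009 genes of all higher within and 2638 higher outside WOS, the larger set 2003 higher within. With 1 rat left out these 2 counts ran from 803 to 1461 and from 608 to 1219, and the number of the 46 rising with the milk protein score from 1 (without rat 81) to 5.

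Of the 46 genes, 27 kept their sign under every alternative. The others, none of them called but Me1, had these log2 fold changes of the opposite sign. With median-ratio scaling they were -0.00665 for Acat2 and -0.00345 for Stard4, and with library size scaling 0.0114 for Sc5d, 0.0368 for Acsl1 and 0.0277 for Dgat1. With sample quality weights they were -0.00334 for Stard4, 0.0727 for Acly, 0.159 for Fasn, -9.3e-05 for Elovl1 and 0.115 for Acsl1, and with the milk protein score 0.0123 for Acsl1. In the larger set they were 0.185 for Acly, 0.158 for Fasn, -0.0438 for Elovl1, 0.276 for Acsl1, -0.0743 for Acsl3 and 0.161 for Btn1a1. With the adipocyte score they were 0.302 for Hmgcs1, 0.705 for Idi1, 1.02 for Sqle, 0.577 for Sc5d, -0.742 for Srebf1, -0.609 for Scap, 0.483 for Acaca and -0.0142 for Dgat2. With 1 rat left out the ranges that crossed 0 were -0.0582 to 0.0907 for Acat2, -0.000706 to 0.102 for Cyp51, -0.0978 to 0.0202 for Sc5d, -0.038 to 0.0598 for Stard4, -0.151 to 0.0054 for Acly, -0.204 to 0.0311 for Fasn, -0.0232 to 0.0685 for Elovl1, -0.147 to 0.238 for Acsl1, -0.0334 to 0.0834 for Acsl3 and -0.0654 to 0.0275 for Dgat1. The cause of these changes was not tested.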
